A study of Mus musculus with 8 samples.

Results

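Genes of peripheral nerve and Schwann cells were followed in the developing uterus of mice with and without conditional deletion of *Ezh2*. The list holds 29 genes known from Schwann cells or neurons, of 27179 genes counted, and was read as 13 glial and 16 neuronal genes. A gene was matched by its symbol and then by its Entrez gene identifier to the count of every library. RNA was measured in whole uteri at postnatal day 10 (PD10). The 4 control libraries came from mice with the floxed *Ezh2* allele on both chromosomes and no Cre. The 4 *Ezh2 Amhr2*-Cre cKO libraries came from mice with the same floxed alleles plus Cre recombinase driven by *Amhr2*, a gene active in the mesenchyme of the female tract and in the cells it gives rise to. Mice of both genotypes were kept on a mixed C57BL/6/129SvEv background. The sources used here do not say whether each library came from a separate mouse, so the p-values below measure the spread between these libraries.

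Peripheral nerves that enter the uterus carry axons whose cell bodies mostly lie outside the organ, in ganglia of the pelvis and beside the spine, and Schwann cells that travel with those axons. Schwann cells descend from the neural crest. Their precursors depend on SOX10 and on neuregulin signaling through ERBB2 and ERBB3, and they mature either into cells that wrap single large axons in myelin under the control of EGR2 or into cells that hold bundles of small axons without myelin. Messenger RNA of neurons is made in the cell body, so a tissue that holds axons alone is known to contain little of it. EZH2 is the enzyme of the repressor complex PRC2 that marks histones over silenced developmental genes, many of them with promoters rich in CpG dinucleotides.

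The libraries held between 25287141 and 36685807 counts on genes. A count of 3, taken as the limit that 0 counts allow, corresponded to 0.0824 to 0.117 counts per 1000000 counts of a library (CPM), and this limit covers counting error only. All levels below are CPM scaled by edgeR's TMM method unless said otherwise. *Ezh2* itself was at 35.4 to 54.7 CPM in the control libraries and 30.4 to 40.7 CPM in the cKO libraries, and the ranges overlapped (adjusted p = 0.247, edgeR's quasi-likelihood test with Benjamini-Hochberg adjustment). This count covers the whole gene and all cell types of the uterus, so it does not read the deleted part alone. The labelled tissue was met by its markers, with the 7 smooth muscle markers summing to 7392 to 9389 CPM and the 5 epithelium markers to 1045 to 1459 CPM. In 3 of the 4 cKO libraries the sum of 8 fat cell markers was 92.2 to 217 CPM, against 2.21 CPM in cKO replicate 4 and 1.15 to 3.17 CPM in the controls. These cKO replicates 1 to 3 stand apart from the rest in that respect, and values from cKO replicate 4 alone are therefore given where they bear on a result.

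Nerve genes spanned a wide range of levels in the PD10 uterus. To compare genes with each other, CPM were divided by the length of the merged exons of each gene in units of 1000 bases, which gives RPKM. In the controls *Pmp22*, a membrane protein of compact myelin that many other cells also make, was highest with 86.0 RPKM. *Gap43*, a protein of growing axons and of immature Schwann cells, followed with 16.9 RPKM, then *Ngfr*, the low-affinity neurotrophin receptor, with 15.3 RPKM. The Schwann cell regulators lay much lower, with *Sox10* at 0.428 RPKM and *Foxd3* at 0.0955 RPKM. Neuronal genes were spread over the whole range, with *Uchl1* at 5.01, *Stmn2* at 1.01 and *Prph* at 0.969 RPKM above *Sox10*, and *Elavl4* at 0.0890, *Tubb3* at 0.0519 and *Th* at 0.0134 RPKM below it. *Chat*, which encodes the enzyme that makes acetylcholine, had 0 counts in all 8 libraries.

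**Figure D1:**
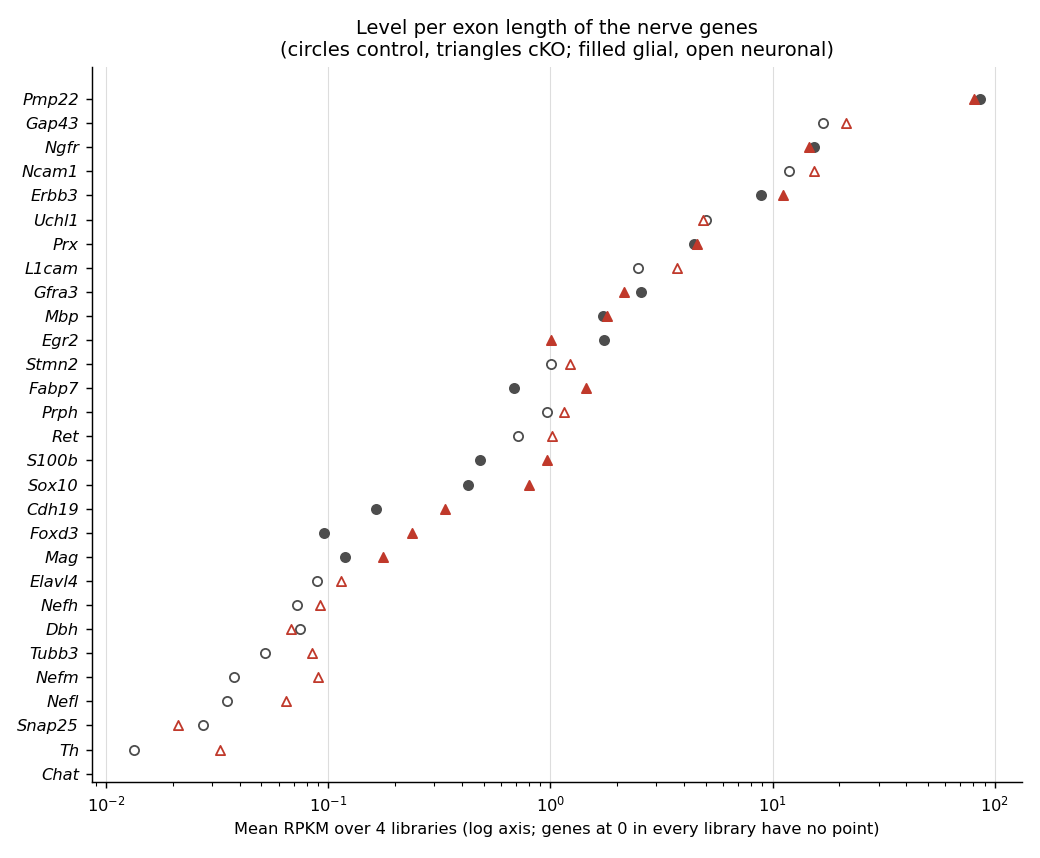
Mean RPKM of each nerve gene over the 4 libraries of a genotype, on a log axis, with circles for control, triangles for cKO, filled symbols for glial and open symbols for neuronal genes. *Pmp22* lies at the top with 86.0 RPKM in the controls, the neuronal genes *Snap25* and *Th* lie at the bottom, and *Chat* has no point because it had 0 counts.

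Of the 29 genes, 23 passed the filter on low values (a CPM over 0.2 in at least 4 libraries) and were tested among 16658 genes. The 6 that did not pass were *Tubb3*, *Snap25*, *Th*, *Dbh*, *Chat* and *Nefl*, all neuronal. With an adjusted p under 0.05, 7 of the 23 were higher in cKO uteri, where 2.62% of all genes tested were called higher. These were *Sox10*, *Erbb3*, *Foxd3*, *Cdh19*, *Fabp7*, *L1cam* and *Ncam1*. *Egr2* was lower, where 2.71% of all genes tested were called lower. In either direction 6 of 13 glial genes and 2 of the 10 neuronal genes tested were called, where the share over all genes tested was 5.34%. The nerve genes were chosen with earlier results of these data known, so these shares are set side by side as a description only. *Foxd3*, *Cdh19* and *Fabp7* were also past a fold change of 2, as were 1.3% of all genes tested. The median log2 fold change was 0.33 over the 13 glial genes and 0.35 over the 10 neuronal genes, beside 0.00 over all genes tested. With a filter of 1 CPM, which removes *Foxd3* and *Mag*, the glial median was 0.059. In bulk tissue, a change in the number of Schwann cells and a change in RNA per Schwann cell cannot be told apart. Nor can either be told apart from a change in other cells that make some of these genes.

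**Figure D2:**
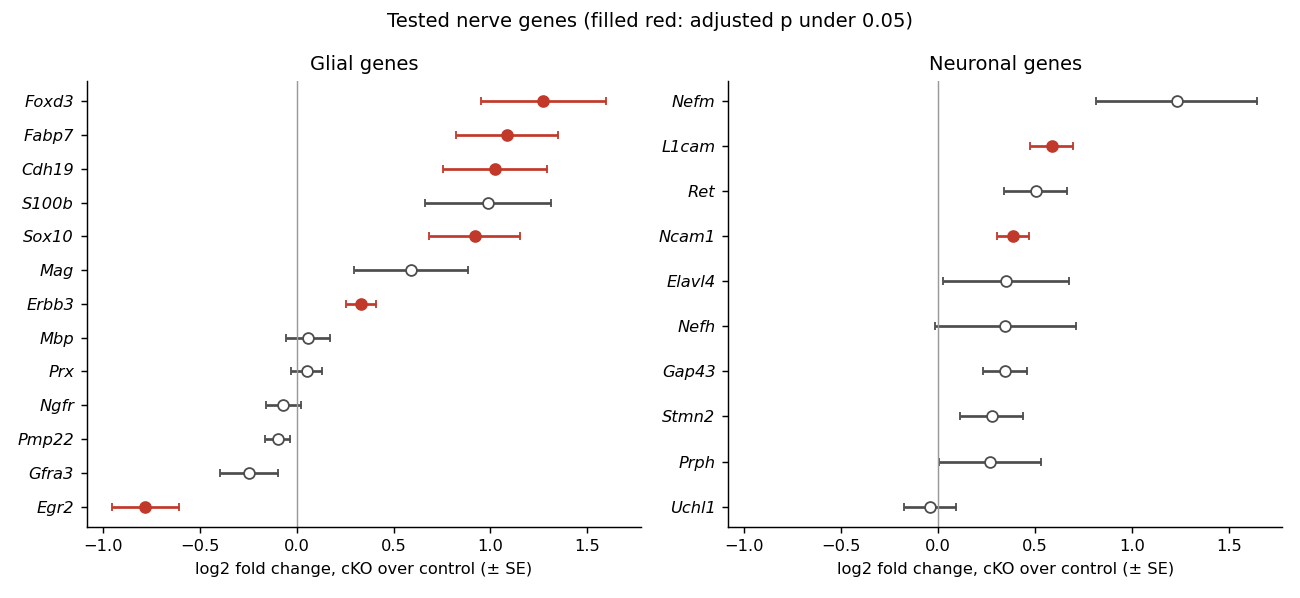
Log2 fold change of cKO over control with its standard error for the 23 nerve genes tested, 13 glial on the left and 10 neuronal on the right, with genes at an adjusted p under 0.05 filled in red. *Foxd3* lies highest at 1.27 and *Egr2* lowest at -0.78, while *Mbp*, *Prx*, *Ngfr* and *Pmp22* lie close to 0.

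The transcription factors of the Schwann cell lineage moved in different directions. *Sox10* (chr15:79154913-79164490, GRCm38), the factor that Schwann cells need at every stage, was at 1.29, 1.78, 1.11 and 1.04 CPM in control replicates 1 to 4. The cKO replicates 1 to 4 held 3.26, 2.38, 2.40 and 1.79 CPM. Every cKO library was above every control library, though cKO replicate 4 at 1.786 CPM barely exceeded control replicate 2 at 1.779 CPM. The mean rose from 1.31 ± 0.333 to 2.46 ± 0.608 CPM (SD, n = 4), a log2 fold change of 0.92 with an SE of 0.23 (adjusted p = 0.0407, edgeR).

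*Foxd3* (chr4:99656299-99658671), a neural crest factor kept in Schwann cell precursors and satellite glia, was the rarest gene called. Control replicates 1 to 4 held 8, 4, 5 and 11 reads, or 0.252, 0.155, 0.178 and 0.302 CPM. In cKO replicates 1 to 4 there were 13, 17, 21 and 14 reads, or 0.505, 0.569, 0.647 and 0.490 CPM. The genotypes did not overlap, but 2 control libraries were at or under the filter of 0.2 CPM, so the gene passed with the help of the group in which it was high. Its log2 fold change was 1.27 with an SE of 0.32 (adjusted p = 0.0400, edgeR), and with DESeq2 the adjusted p was 0.0642. Its exons share 89 bases with *Gm23366* on the same strand.

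*Egr2* (chr10:67534469-67542188), also called Krox20, switches on myelin genes in Schwann cells and is also made by other cells, among them fibroblasts and immune cells that have been stimulated. Control replicates 1 to 4 gave 5.61, 6.42, 7.28 and 4.37 CPM. In cKO replicates 1 to 4 it was at 2.99, 3.92, 3.79 and 3.01 CPM, below every control. *Egr2* fell by 0.78 on the log2 scale with an SE of 0.17 (adjusted p = 0.0215, edgeR). It was the only nerve gene called lower among the 23 tested.

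**Figure D3:**
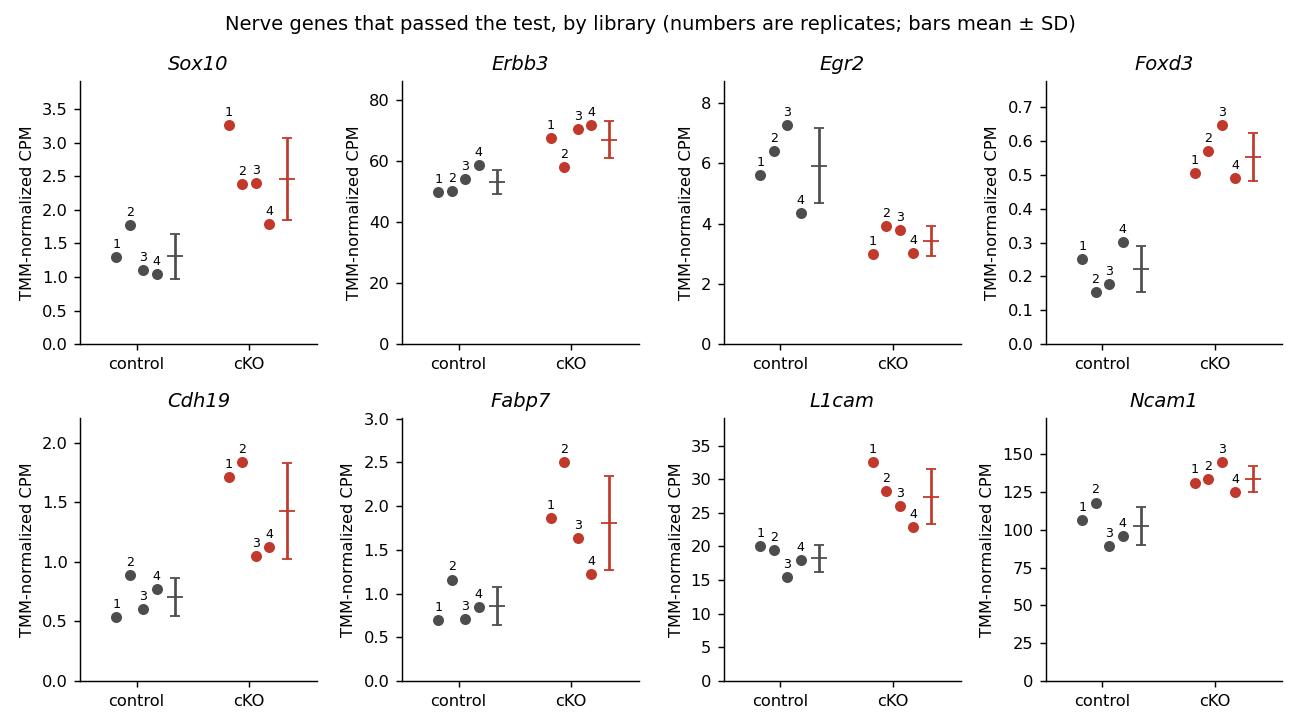
TMM-normalized CPM in each library for the 8 nerve genes with an adjusted p under 0.05, with replicate numbers beside the points and bars for mean ± SD of 4 libraries. *Egr2* is lower in every cKO library, the groups of *Erbb3* overlap at 58.2 and 58.6 CPM, and in the other 6 genes every cKO library lies above every control library, with the smallest gap in *Sox10* (1.779 and 1.786 CPM).

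*Cdh19* and *Fabp7* rose, while *S100b* did not pass the test. *Cdh19* (chr1:110888002-110977601), a cadherin of Schwann cell precursors, was at 0.536, 0.890, 0.606 and 0.769 CPM in control replicates 1 to 4 and at 1.71, 1.84, 1.05 and 1.12 CPM in cKO replicates 1 to 4. Every cKO library was above every control, with replicates 1 and 2 highest. Its log2 fold change was 1.02 with an SE of 0.27 (adjusted p = 0.0467, edgeR), and with limma-voom the adjusted p was 0.0621. *Fabp7* (chr10:57784923-57788450), a fatty acid binding protein of glial precursors, was at 0.694, 1.16, 0.714 and 0.851 CPM in control replicates 1 to 4 and at 1.86, 2.51, 1.63 and 1.23 CPM in cKO replicates 1 to 4. Control replicate 2 came close to cKO replicate 4 and the other libraries lay further apart. The log2 fold change of *Fabp7* was 1.09 with an SE of 0.26 (adjusted p = 0.0331, edgeR).

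*S100b*, a calcium-binding protein of Schwann cells that fat cells also make, had a similar size of difference without passing the test. It was at 0.250 to 0.906 CPM in the controls and 1.14 to 1.79 CPM in the cKO libraries, which did not overlap, and its log2 fold change was 0.99 with an SE of 0.32 (adjusted p = 0.101, edgeR). In all, 7 genes had every cKO library above every control and *Egr2* had every cKO library below, where 5.9% and 6.43% of all genes tested did so. Those 7 are *S100b* and the genes called higher other than *Erbb3*.

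The number of calls depended on single libraries, among the glial genes and among all genes tested. Of the 6 glial calls, 0 stayed when control replicate 1, control replicate 3 or cKO replicate 1 was left out, while the calls over all genes fell from 889 to 425, 578 and 484. There were 2 glial calls without cKO replicate 2 or cKO replicate 3, 3 without control replicate 4, 5 without control replicate 2 and 6 without cKO replicate 4, beside 488, 538, 643, 951 and 1783 calls over all genes. The log2 fold changes kept their sign in all 8 of these fits, at 0.76 to 1.09 for *Sox10*, 1.15 to 1.47 for *Foxd3*, 0.88 to 1.15 for *Cdh19*, 0.89 to 1.25 for *Fabp7* and -0.90 to -0.66 for *Egr2*. Against the 4 controls, cKO replicate 4 alone gave log2 fold changes of 0.46 for *Sox10*, 1.10 for *Foxd3*, 0.68 for *Cdh19*, 0.53 for *Fabp7* and -0.97 for *Egr2*. These values rest on 1 cKO library and are given without a test.

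Promoter sequence was at hand for 16 of the 29 genes, from RefSeq annotation of GRCm38.p6, and 4 of these were among the genes called. The 250 bases before the tabled transcript start are printed for these 4, because PRC2 is known to bind promoters rich in CpG dinucleotides, which are set in capitals. No chromatin was measured in these mice. *Foxd3* lies at chr4:99656049-99656298 on the plus strand, *Egr2* at chr10:67535249-67535498 on the plus strand, *L1cam* at chrX:73880835-73881084 on the minus strand and *Fabp7* at chr10:57784673-57784922 on the plus strand. The stretch of *Egr2* lies inside the annotated span of the gene, before an internal transcript start. That of *L1cam* overlaps the end of the gene's span by a few bases.

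Foxd3: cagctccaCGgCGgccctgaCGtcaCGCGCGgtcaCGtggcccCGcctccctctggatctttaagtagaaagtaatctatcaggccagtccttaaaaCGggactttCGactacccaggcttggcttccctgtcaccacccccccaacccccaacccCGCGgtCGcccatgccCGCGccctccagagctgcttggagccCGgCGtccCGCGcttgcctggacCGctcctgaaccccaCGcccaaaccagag
Egr2: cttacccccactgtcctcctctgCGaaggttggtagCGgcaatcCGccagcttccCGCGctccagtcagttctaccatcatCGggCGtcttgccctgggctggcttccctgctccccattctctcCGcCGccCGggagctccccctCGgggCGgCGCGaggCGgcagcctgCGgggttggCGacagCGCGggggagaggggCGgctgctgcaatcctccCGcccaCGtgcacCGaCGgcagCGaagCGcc
L1cam: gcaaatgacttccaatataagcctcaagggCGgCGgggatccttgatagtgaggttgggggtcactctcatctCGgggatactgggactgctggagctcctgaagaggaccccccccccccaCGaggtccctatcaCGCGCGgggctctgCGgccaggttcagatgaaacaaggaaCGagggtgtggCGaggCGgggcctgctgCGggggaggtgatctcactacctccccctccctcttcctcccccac
Fabp7: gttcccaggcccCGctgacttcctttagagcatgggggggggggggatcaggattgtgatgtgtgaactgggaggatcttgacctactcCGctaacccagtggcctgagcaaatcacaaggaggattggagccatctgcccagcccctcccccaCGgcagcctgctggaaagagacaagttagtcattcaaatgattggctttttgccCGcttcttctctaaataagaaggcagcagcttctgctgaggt

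*Egr2* held 26 CpG in this stretch, *Foxd3* 21, *L1cam* 12 and *Fabp7* 4. Over the 300 bases of each tabled promoter, the CpG content relative to base composition lay at percentile 81.4 for *Egr2*, 78.1 for *Foxd3*, 67.3 for *L1cam* and 39.1 for *Fabp7* among 27025 mouse promoters. *Egr2*, which was lower in cKO uteri, and *Foxd3*, which was higher, thus both had CpG-rich starts. The short SOX motif ACAAAG, searched on both strands, was present in 1 of the 16 promoters, that of *Mag*, and in 18.7% of all promoters. The EGR motif GCGTGGGCG was present in 0 of 16 and in 0.622% of all promoters. The half-site TTCAGCACC of REST, a repressor of neuronal genes, was present in 0 of 16 and in 0.370% of all. A match or its absence in these windows describes the letters only.

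Genes of the myelin sheath did not pass the test. *Mbp*, myelin basic protein, was at 14.1, 14.7, 13.2 and 16.1 CPM in control replicates 1 to 4. In cKO replicates 1 to 4 it was at 16.5, 11.8, 15.4 and 16.8 CPM, and the groups overlapped over most of their range. Its log2 fold change was 0.06 with an SE of 0.11 (adjusted p = 0.814, edgeR), and the locus also gives golli transcripts outside myelinating cells that a count per gene cannot separate. *Pmp22* had a mean of 202 ± 17.1 CPM in the controls and 189 ± 6.55 CPM in the cKO libraries (SD, n = 4; log2 fold change -0.10, SE 0.06). *Prx*, periaxin, which links the myelinating Schwann cell to its basal lamina and is also made by endothelium, was at 24.6 ± 2.02 and 25.5 ± 1.62 CPM, with 300 bases of its exons opposite *Gm15541*. *Mag*, a myelin adhesion protein on the face toward the axon, had 10 to 17 reads in the controls and 13 to 28 reads in the cKO libraries, with a log2 fold change of 0.59 and an SE of 0.29 (adjusted p = 0.271, edgeR).

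Set beside *Mbp* within each library, *Sox10* had 9.17, 12.1, 8.36 and 6.46 reads per 100 *Mbp* reads in control replicates 1 to 4. In cKO replicates 1 to 4 there were 19.7, 20.1, 15.6 and 10.6. The ratio was highest in cKO replicates 1 to 3, while cKO replicate 4 lay below control replicate 2. *Cdh19* had 3.80 to 6.05 reads per 100 *Mbp* reads in the controls and 6.68 to 15.5 in the cKO libraries, which did not overlap. *Foxd3* had 1.05 to 1.87 in the controls and 2.92 to 4.80 in the cKO libraries, also without overlap. *Fabp7* had 4.92 to 7.89 in the controls and 7.31 to 21.2 in the cKO libraries, which overlapped. These ratios are given without a test.

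Among the receptors, only *Erbb3* of 4 passed. *Erbb3* (chr10:128567523-128589635), the neuregulin receptor that Schwann cell precursors need to survive, is also made by epithelium. It was at 49.8, 50.4, 54.0 and 58.6 CPM in control replicates 1 to 4 and at 67.5, 58.2, 70.5 and 71.9 CPM in cKO replicates 1 to 4. The groups touched, with cKO replicate 2 just below control replicate 4. The log2 fold change was 0.33 with an SE of 0.08 (adjusted p = 0.0260, edgeR), and the adjusted p was 0.0974 at most when a single library was left out, with the call lost when control replicate 1 or 3 or cKO replicate 1 or 3 was left out.

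The remaining receptors did not pass with edgeR, and their groups overlapped. *Ngfr* was at 52.9 ± 7.60 CPM in the controls and 50.4 ± 1.86 CPM in the cKO libraries (log2 fold change -0.07, SE 0.09). *Gfra3*, the receptor for artemin on neurons and Schwann cell precursors, was at 5.09 ± 0.462 and 4.29 ± 0.777 CPM (log2 fold change -0.25, SE 0.15). *Ret*, the signaling partner of such receptors, was at 4.85 ± 0.624 and 6.89 ± 1.51 CPM (log2 fold change 0.50, SE 0.16, adjusted p = 0.0975, edgeR), with cKO replicate 3 at 5.33 CPM within the control range of 4.25 to 5.61 CPM and the other cKO libraries above it. With DESeq2 the adjusted p of *Ret* was 0.0443.

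The neuronal genes called were both cell surface adhesion molecules shared with Schwann cells and other tissues. *L1cam* (chrX:73853778-73880838), which guides and bundles axons and is found on Schwann cells without myelin, was at 20.0, 19.5, 15.5 and 18.0 CPM in control replicates 1 to 4. In cKO replicates 1 to 4 it was at 32.6, 28.2, 26.0 and 22.9 CPM, above every control. The mean rose from 18.2 ± 2.00 to 27.4 ± 4.10 CPM (SD, n = 4), with a log2 fold change of 0.59, an SE of 0.11 and an adjusted p of 0.00962 (edgeR). It stayed called in all 8 fits with a library left out, with adjusted p from 0.00295 to 0.0282. Its exons share 100 bases with *Arhgap4* on the same strand.

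*Ncam1* (chr9:49502129-49799393), an adhesion molecule of axons and Schwann cells that mesenchyme also makes, was at 107, 118, 89.0 and 96.0 CPM in control replicates 1 to 4 and at 131, 134, 145 and 125 CPM in cKO replicates 1 to 4. Every cKO library was above every control. The log2 fold change was 0.39 with an SE of 0.08 (adjusted p = 0.0182, edgeR). The call was lost without control replicate 4 or without cKO replicate 3, where the adjusted p reached 0.0587 at most. *Ncam1* shares 417 bases of exons with *Gm11149* on the opposite strand. *Gap43*, in turn, was at 25.8 ± 3.94 and 32.7 ± 3.88 CPM, and its log2 fold change of 0.35 with an SE of 0.11 did not pass (adjusted p = 0.103, edgeR).

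Of the 16 neuronal genes listed, those for cytoskeleton, RNA binding and vesicle release did not pass or were not tested. *Stmn2*, a microtubule regulator of growing axons, was measured at 6.21, 4.22, 5.85 and 6.29 CPM in control replicates 1 to 4 and 6.56, 8.17, 7.39 and 5.29 CPM in cKO replicates 1 to 4. The cKO replicate 4 value was within the control range. Its log2 fold change was 0.28 with an SE of 0.16 (adjusted p = 0.351, edgeR). *Prph*, peripherin, the intermediate filament of peripheral neurons, was at 1.70, 3.17, 1.39 and 1.48 CPM in the controls and 2.52, 2.28, 2.71 and 1.72 CPM in the cKO libraries, with control replicate 2 the highest of all 8. Its log2 fold change was 0.27 with an SE of 0.26 (adjusted p = 0.594, edgeR).

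*Elavl4*, the RNA-binding protein HuD of neurons, was at 0.442, 0.426, 0.392 and 0.659 CPM in control replicates 1 to 4 and at 0.621, 0.502, 0.924 and 0.420 CPM in cKO replicates 1 to 4. The 2 groups overlapped, and the log2 fold change was 0.35 with an SE of 0.32 (adjusted p = 0.565, edgeR). *Tubb3*, the tubulin of neurons, had 2, 3, 2 and 5 reads in control replicates 1 to 4 and 5, 2, 4 and 7 reads in cKO replicates 1 to 4. These counts lie around the limit of 3 and no difference was detectable at this depth. *Snap25*, a protein of synaptic vesicle release, had 2 to 9 reads in any library. *Uchl1*, a deubiquitinase abundant in neurons and found in other cells too, was at 8.18 ± 0.841 and 7.95 ± 1.39 CPM (log2 fold change -0.04, SE 0.14), and shares 295 bases with *Uchl1os* on the opposite strand.

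The neurofilament genes were close to the detection limit. *Nefl*, the light chain, had 2 to 7 reads in the controls and 4 to 11 reads in the cKO libraries and was not tested. *Nefm*, the medium chain, had 5, 3, 9 and 10 reads in the controls and 17, 16, 21 and 7 reads in the cKO libraries, and cKO replicate 4 fell within the control range. Its log2 fold change of 1.23 with an SE of 0.42 did not pass (adjusted p = 0.109, edgeR), and it passed the filter in 2 of 4 control and 4 of 4 cKO libraries. Without cKO replicate 4 the log2 fold change was 1.46 and the adjusted p was 0.0300. *Nefl* and *Nefm* overlap by 1108 bases of annotated exons on opposite strands, and the strand setting of the counting is not given in the sources used here. *Nefh*, the heavy chain, was at 0.290 ± 0.0571 and 0.368 ± 0.146 CPM (log2 fold change 0.35, SE 0.36).

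The 3 enzymes of transmitter synthesis among the nerve genes gave almost no reads. *Th*, tyrosine hydroxylase, the marker of sympathetic neurons, had 0, 0, 2 and 2 reads in control replicates 1 to 4 and 3, 2, 4 and 0 reads in cKO replicates 1 to 4. *Dbh*, dopamine beta-hydroxylase, which makes noradrenaline, had 4, 12, 3 and 4 reads in the controls and 6, 5, 4 and 6 reads in the cKO libraries, with control replicate 2 alone above the rest. With *Chat* at 0 reads, no library gave more than 12 reads of these 3 genes each. Their levels were too low for a comparison of genotypes. *Ddc*, a further enzyme of transmitter synthesis from a related list, had 10 to 18 reads in the controls and 20 to 28 reads in the cKO libraries. It was tested and did not pass (log2 fold change 0.69, adjusted p = 0.147, edgeR).

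Markers of other cells were set beside the nerve genes. *Sox10* is also made by melanocytes. Of 6 melanocyte markers *Tyrp1* had 0 reads in every library, and *Tyr*, *Dct* and *Mlana* had at most 4 reads, while *Pmel*, a melanosome protein, had 46 to 74 reads and did not pass (log2 fold change 0.11, adjusted p = 0.754, edgeR). The list summed to 59.0 to 67.5 CPM in the controls and 32.5 to 38.2 CPM in the cKO libraries, nearly all of it *Mitf*, which many other cells use and which fell by 0.83 on the log2 scale (adjusted p = 5.86e-05, edgeR). The 3 chromaffin cell markers summed to at most 0.427 CPM in any library.

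The cKO libraries did not take 1 order for the nerve genes called higher. Of these 7, cKO replicate 4 was the lowest cKO library for *Sox10*, *Foxd3*, *Fabp7*, *L1cam* and *Ncam1*, and it was also the cKO library with the lowest sum of fat cell markers. *Cdh19* was lowest in cKO replicate 3 and *Erbb3* in cKO replicate 2. The fat sum was highest in cKO replicate 2 with 217 CPM, as were *Cdh19* and *Fabp7*, while *Sox10* and *L1cam* were highest in cKO replicate 1, *Foxd3* and *Ncam1* in cKO replicate 3 and *Erbb3* in cKO replicate 4. Of the 8 fat cell markers 5 were tested, with a median log2 fold change of 5.98. With edgeR 0 passed and all 5 had an unadjusted p under 0.05, with limma-voom 0 passed and with DESeq2 5 passed, and *Ucp1*, the marker of brown fat, had 0 to 9 reads in any library. The part of fat-bearing tissue in the nerve gene values was not tested. In cKO replicate 4, whose fat sum was 2.21 CPM, *Sox10* was at 1.786 CPM against 1.779 CPM in the highest control. There *Fabp7* was at 1.23 against 1.16 CPM and *Ncam1* at 125 against 118 CPM. The others of these 7 genes were also above the highest control in that library.

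*Erbb3* was set beside the 5 epithelium markers, whose sum was 1121, 1045, 1263 and 1275 CPM in control replicates 1 to 4 and 1298, 1202, 1384 and 1459 CPM in cKO replicates 1 to 4. The same 3 libraries, cKO replicates 1, 3 and 4, were highest for both, and the same 2, control replicates 1 and 2, were lowest. With edgeR 0 of the 5 epithelium markers passed and 2 had an unadjusted p under 0.05, with limma-voom 0 passed and with DESeq2 1 passed. Their part in the *Erbb3* value was not tested. The 7 stroma markers summed to 8350 to 10947 CPM in the controls and 10030 to 12871 CPM in the cKO libraries, with *Col3a1* called higher (log2 fold change 0.36, adjusted p = 0.0454, edgeR). Of 6 skeletal muscle markers 4 were tested and 1 passed with edgeR, *Myh3*, an embryonic myosin, with 0 to 4 reads in the controls and 12 to 57 reads in the cKO libraries. It passed the filter in 0 of 4 control and 4 of 4 cKO libraries, that is, through the group in which it was high. *Myog*, a myogenic factor under the filter, had 0 to 1 reads in the controls and 6 to 35 reads in the cKO libraries. Over the 4 tested the median log2 fold change was 1.14, 3 had an unadjusted p under 0.05, DESeq2 called 2 and limma-voom 1. The list summed to 41.6 to 72.3 CPM in the controls and 35.7 to 59.3 CPM in the cKO libraries, nearly all of it *Acta1*. The part of skeletal muscle in the nerve gene values was not tested. Of the 7 smooth muscle, 5 endothelium and 4 urothelium markers, 0 passed with edgeR, while 2, 3 and 2 had an unadjusted p under 0.05. DESeq2 called 1, 0 and 1 of them, and limma-voom called 0, 0 and 1.

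**Figure D4:**
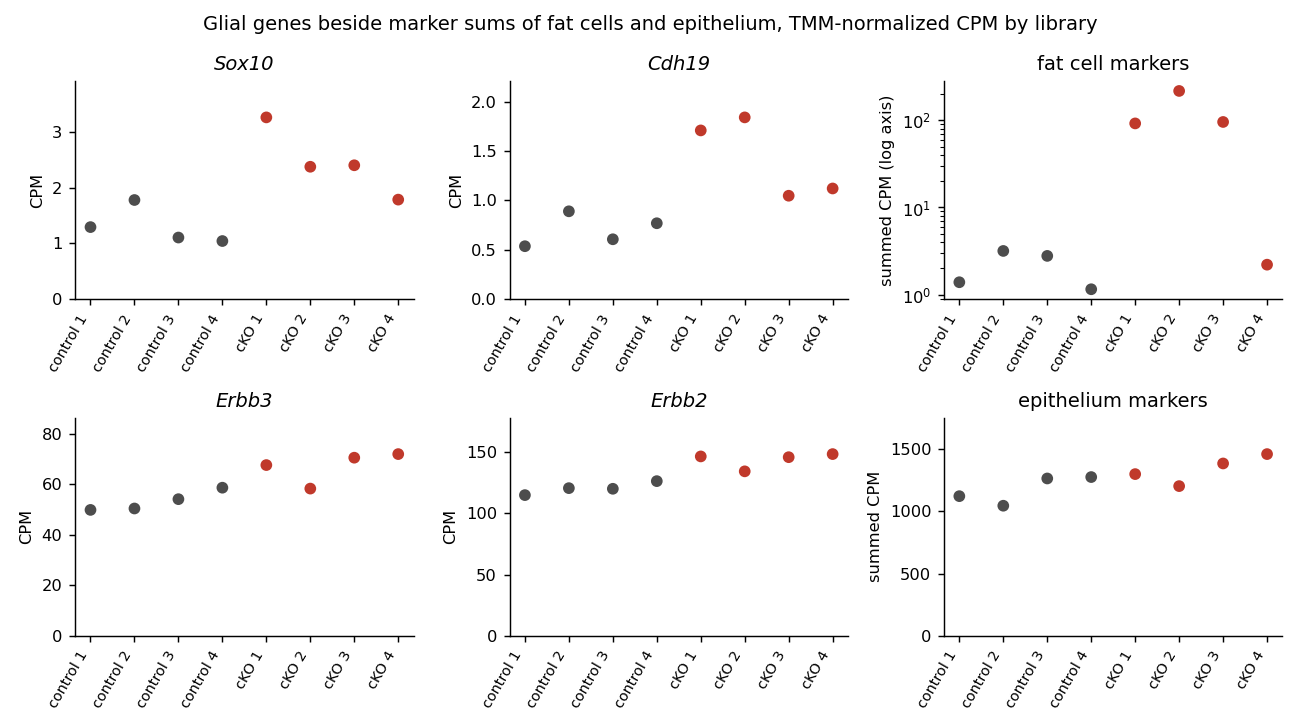
TMM-normalized CPM by library for *Sox10*, *Cdh19*, *Erbb3* and *Erbb2*, beside the summed CPM of 8 fat cell markers (log axis) and of 5 epithelium markers, with control in gray and cKO in red. The fat sum is 92.2 to 217 CPM in cKO replicates 1 to 3 and 2.21 CPM in cKO replicate 4, and the epithelium sum runs from 1045 to 1459 CPM.

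Of 17 other Schwann cell genes 14 were tested and 1 passed, or 7.14%, beside 5.34% of all genes tested, with a median log2 fold change of 0.20. DESeq2 called 3 of the 14, and 1510 of the 16658 genes. The one called was *Erbb2*, the receptor that signals together with ERBB3, at 120 ± 4.66 CPM in the controls and 144 ± 6.39 CPM in the cKO libraries (log2 fold change 0.25, SE 0.05, adjusted p = 0.0179, edgeR). The range without 1 library was 0.0201 to 0.0773 in adjusted p, and the call needed control replicate 1 and cKO replicates 1 and 3. *Erbb2* was highest in cKO replicates 1, 3 and 4 at 146, 146 and 148 CPM, the libraries highest for the epithelium sum. The part of epithelium in the *Erbb2* value was not tested.

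Of 17 further neuron genes 9 were tested, and 2 were called higher and 1 lower, where 2.62% and 2.71% of all genes tested were. *Rbfox3*, which encodes the nuclear antigen NeuN, was at 0.568, 0.890, 0.571 and 0.577 CPM in control replicates 1 to 4 and at 2.37, 2.07, 2.06 and 1.68 CPM in cKO replicates 1 to 4. The groups lay well apart, with a log2 fold change of 1.66 and an SE of 0.23 (adjusted p = 0.00104, edgeR). *Syt1*, a calcium sensor of vesicle release, had a log2 fold change of 0.63 (adjusted p = 0.00933). *Map2*, known from dendrites but at 112 ± 7.04 CPM in these controls, fell to 60.2 ± 7.63 CPM (log2 fold change -0.90, adjusted p = 8.77e-05). The 8 genes not tested include *Phox2a* and *Isl1*, factors of autonomic or sensory neurons, with at most 13 reads in a library.

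Of 13 transmitter and neuropeptide genes 8 were tested, and 2 passed, both lower, where 2.71% of all genes tested were called lower. *Slc6a2*, the noradrenaline transporter, was at 132 ± 2.63 CPM in the controls and 68.3 ± 6.01 CPM in the cKO libraries (log2 fold change -0.95, SE 0.06, adjusted p = 1.36e-05, edgeR), whereas *Th* and *Dbh*, which sympathetic neurons express along with it, had at most 12 reads. *Slc18a2*, a monoamine transporter on the same list, had 82 to 124 reads in the controls and 81 to 122 reads in the cKO libraries. It did not pass (log2 fold change 0.09, adjusted p = 0.771, edgeR). *Nos1*, the neuronal nitric oxide synthase, which skeletal muscle also makes, had 57, 46, 36 and 43 reads in control replicates 1 to 4 and 7, 1, 3 and 2 reads in cKO replicates 1 to 4. No cKO library came near a control. The gene passed the filter in 4 of 4 control and 1 of 4 cKO libraries, and its fitted log2 fold change of -3.70 with an SE of 0.42 (adjusted p = 0.000303, edgeR) rests on those few cKO reads. Among the neuropeptides listed, *Vip*, *Gal* and *Sst* had at most 3 reads in a library, and *Calca*, *Tac1* and *Adcyap1* at most 19. *Npy* had 90 to 155 reads in the controls and 94 to 194 reads in the cKO libraries. It did not pass (log2 fold change 0.11, adjusted p = 0.768, edgeR).

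All 13 neurotrophic factors and receptors listed were tested, with control means from 0.274 CPM for *Bdnf* to 339 CPM for *Ntrk2*. *Gdnf*, the ligand of RET with its coreceptor GFRA1, fell from 6.88 ± 0.671 to 4.40 ± 0.787 CPM (log2 fold change -0.64, SE 0.15, adjusted p = 0.0258, edgeR), and the call was lost in 5 of the 8 fits with a library left out, namely without control replicates 1 or 4 or cKO replicates 1, 2 or 3, with adjusted p up to 0.0868. *Ntrk2*, the receptor of BDNF, was at 339 ± 27.8 and 447 ± 37.5 CPM (log2 fold change 0.40, adjusted p = 0.00878).

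All 21 axon guidance genes were tested, and 3 were called higher and 3 lower, where 2.62% and 2.71% of all genes tested were. *Slit2*, a secreted repellent of axons, rose from 57.1 ± 6.09 to 100 ± 4.34 CPM (log2 fold change 0.81, SE 0.07, adjusted p = 6.28e-05, edgeR). *Plxna2*, a semaphorin receptor, fell by 0.49 on the log2 scale (adjusted p = 0.00146). *Dcc*, a netrin receptor, fell by 0.62 (adjusted p = 0.00387), and *Sema3c*, a secreted semaphorin, fell by 0.41 (adjusted p = 0.00592). *Unc5c*, another netrin receptor, had a log2 fold change of 0.50 (adjusted p = 0.0340), with a call that was kept in 2 of the 8 fits with a library left out, those without control replicate 4 and without cKO replicate 4. The calls of *Slit2*, *Plxna2*, *Dcc* and *Sema3c* were kept in all 8.

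**Figure D5:**
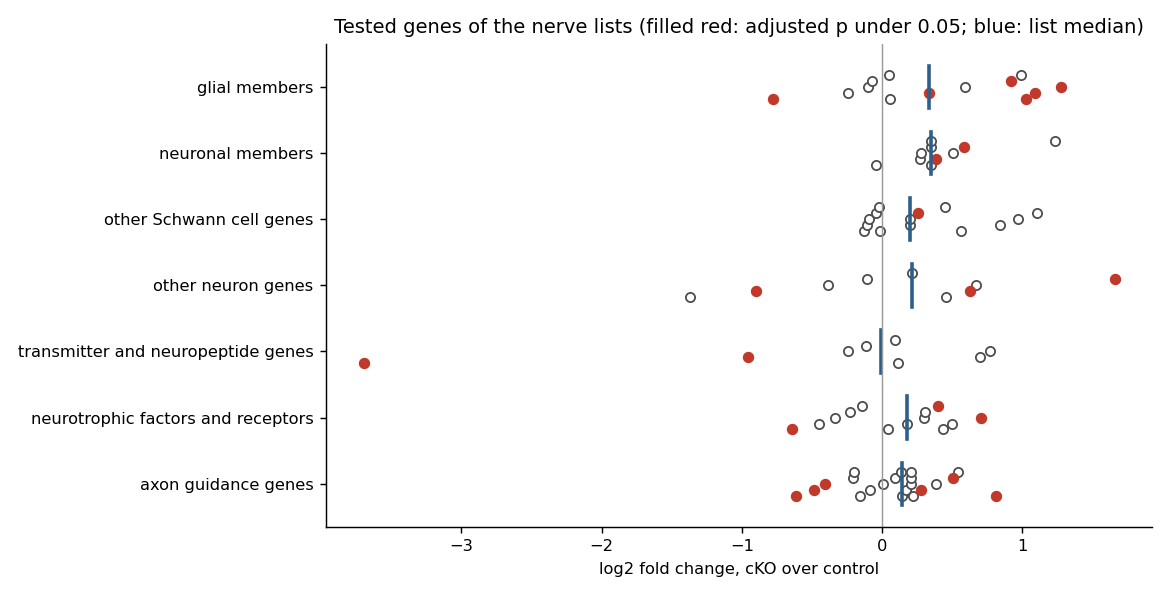
Log2 fold change of cKO over control for every tested gene of the glial and neuronal lists and of 5 related lists, with genes at an adjusted p under 0.05 filled in red and the median of each list as a blue bar. The medians run from -0.01 for transmitter and neuropeptide genes to 0.35 for the neuronal list, and *Nos1* lies furthest from 0 at -3.70.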

How the data were processed

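RNA-seq of 8 libraries of whole uterus at PD10 was read from the raw counts that the authors deposited per Entrez gene and library. Per the labels, libraries were made with a TruSeq stranded mRNA kit. Per the submitters' processing notes and the methods, the authors trimmed reads with Trimmomatic, checked them with FastQC, mapped them to GRCm38 using HISAT2 and assigned them to genes using featureCounts. Annotation release, strand setting and treatment of multiply mapped reads are not given in the sources used here, so overlapping genes are uncertain. The authors' own comparison (fold changes and p-values) was used for gene symbols only.

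edgeR 4.0.16 in R 4.3.3 was run on genes past 0.2 CPM in 4 libraries or more (TMM, glmQLFit and glmQLFTest with robust = TRUE, prior count 0.125, two-sided), with Benjamini-Hochberg adjustment over all 16658 genes. The filter, TMM, the robust setting and the adjustment follow the study's methods, whose further requirement of a fold change over 2 was not part of a call here. The test was also run on counts simulated gene by gene from the mean levels and fitted dispersions of these data. Such counts hold no shared differences in tissue content between libraries, so that run says nothing about how the test behaves with them. SE is the size of the log2 fold change divided by the square root of F. RPKM used merged exons of GENCODE M21. Positions and promoters came from RefSeq (GRCm38.p6).

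The members and lists were chosen with earlier results of these data known. All 29 nerve genes are accounted for. Values per library are given for those with an adjusted p under 0.05 and for *Sox10*, *Mbp*, *Erbb3*, *Cdh19*, *Tubb3*, *Stmn2*, *Elavl4*, *Prph*, *Th* and *Dbh*. From a related list, called genes are named, at most 5 by smallest p. Some genes of these lists are not reported here. *S100b* and *Nefm* by library, *Phox2a*, *Isl1*, *Vip*, *Gal* and *Sst* were named after their values were seen. The same holds for *Npy*, *Calca*, *Tac1*, *Adcyap1*, *Slc18a2*, *Ddc* and *Bdnf*. Alternatives were RLE size factors, DESeq2 1.42.0, limma-voom (limma 3.58.1), no robust setting, a filter of 1 CPM or none, replicate number as a block, each library left out in turn, and *L1cam*, *Ncam1* and *Gap43* counted as glial. The comparison of cKO replicate 4 alone was added after seeing the data. No 2 libraries agreed within sampling noise (chi-square per gene of at least 7.49). The labels give no batch. Same-numbered libraries had correlations of 0.02, 0.11, 0.00 and 0.19, so the numbers were not taken as pairs.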

Additional observations from a re-analysis of the deposited data

Results flagged for a closer look

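In groups of 4 libraries, a single library was tested for its distance from the others with Dixon's criterion. Among 56 groups, the 29 nerve genes giving up to 2 each, 3 had such a library, where chance gives about 1 in 20. *S100b* was at 0.250 CPM in control replicate 3, from 7 reads, while the nearest other control was at 0.851 CPM. *Dbh* was at 0.464 CPM in control replicate 2, from 12 reads, with the nearest other control at 0.126 CPM. *Nefh* was at 0.585 CPM in cKO replicate 3, from 19 reads, with the nearest other cKO library at 0.315 CPM. *S100b* and *Nefh* did not pass the test and *Dbh* was not tested.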

How the results depend on the processing

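The 8 calls among nerve genes were kept with RLE size factors and with robust = FALSE. *Foxd3* lost its call with no filter (adjusted p = 0.0584), with the replicate block (0.0601) and with DESeq2 (0.0642), and *Cdh19* with limma-voom (0.0621). At a stricter filter of 1 CPM fewer genes were tested, and the median log2 fold change of the glial genes was 0.059. Over all genes, DESeq2 called 1510 genes against 889 with edgeR, and 3 against 1 of the other Schwann cell genes. Leaving out each library gave 425 (without control replicate 1) to 1783 calls (without cKO replicate 4) over all genes, 0 to 6 among glial and 1 to 3 among neuronal genes. Their medians ran from 0.30 to 0.40 and from 0.25 to 0.42. cKO replicate 4 alone, an arm of 1 library assumed to vary like the controls, gave a glial median of 0.43 and a neuronal median of 0.13, with 38 calls over all genes, 0 among glial and 0 among neuronal genes, which says nothing of stability. With *L1cam*, *Ncam1* and *Gap43* counted as glial there were 8 glial and 0 neuronal calls. Signs turned only for genes not called: *Prx* without control replicate 4 (-0.0022, with a range over libraries left out up to 0.093) and in cKO replicate 4 alone (-0.062), *Ngfr* without control replicate 1 (0.019, from -0.12), *Uchl1* without control replicate 4 (0.033) or cKO replicate 2 (0.064, from -0.14), and in cKO replicate 4 alone *Elavl4* (-0.21), *Stmn2* (-0.10) and *Prph* (-0.16). *Gap43* passed with the replicate block (log2 fold change 0.35, adjusted p = 0.0318), *Ret* with DESeq2 (0.0443) and *Nefm* without cKO replicate 4 (0.0300). The replicate block gave 1240 calls over all genes, 5 glial and 3 neuronal. The cause of these changes was not tested. Depth limits the 6 nerve genes under the filter, at 12 reads or fewer in a library.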
